A study of Homo sapiens with 6 samples.

Results

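The genes described are 9 genes of HLA class I antigen presentation, namely HLA-B, HLA-C, HLA-E, HLA-F, B2M, TAP1, TAP2, TAPBP and NLRC5, out of 24131 annotated genes. They were listed by name, and each was represented by the ChIP-seq peak regions found within 1 kb of any annotated transcription start site (TSS) of the gene. All 9 had such a region in each of 4 peak lists, 2 for acetylation of histone H3 lysine 27 (H3K27ac) and 2 for trimethylation of H3 lysine 4 (H3K4me3). In control cells, 13591 of the 24131 genes had one for H3K27ac and 13668 for H3K4me3. Both marks are found at active promoters, where H3K4me3 sits around the start site and H3K27ac also marks active enhancers.

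The samples were HSC3 cells, an established oral squamous cell carcinoma (OSCC) line, collected 72 h after transfection with a control siRNA (siCONT) or with siDLEU1, an siRNA against the long noncoding RNA DLEU1 that the study calls siDLEU1-2. Each siRNA and mark had 1 library, so differences have no replicate behind them and no test was made. A difference is therefore a difference between 2 libraries, and the effect of the siRNA cannot be told apart from the spread between cultures or preparations, nor from an off-target effect of a single siRNA. The lists hold no RNA, so the knockdown of DLEU1 cannot be checked from them, and mark levels are not expression levels.

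Class I molecules display short peptides from inside the cell to cytotoxic T cells and natural killer cells. A heavy chain encoded by a gene such as HLA-B or HLA-C pairs with the invariant light chain β2-microglobulin (B2M) in the endoplasmic reticulum. Peptides enter through the transporter formed by TAP1 and TAP2, and tapasin (TAPBP) holds the empty class I molecule at that transporter while it is loaded. Interferons raise these genes, and the transactivator NLRC5 acts on conserved promoter elements that most of them share. Loss of this machinery is a known way for carcinomas to escape T cells.

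To show what lay under the regions, the 250 bases before the canonical TSS are given for the 3 genes that changed by 20 percentile points or more and for HLA-C, the close relative of HLA-B. They are hg19 reference sequence, chr15:45003465-45003714 on the plus strand for B2M, and on the minus strand chr6:31324957-31325206 for HLA-B, chr6:31239870-31240119 for HLA-C and chr6:32806517-32806766 for TAP2. The alleles of HSC3 may differ from this reference. Of 5 motifs searched on both strands, capitals mark the letters of 4, the interferon-stimulated response element core GAAANNGAAA, the CRE-like TGACG, the box CCAAT and the NF-kB consensus. Overlapping matches were allowed, so a run of capitals can hold 2 matches.
B2M promoter: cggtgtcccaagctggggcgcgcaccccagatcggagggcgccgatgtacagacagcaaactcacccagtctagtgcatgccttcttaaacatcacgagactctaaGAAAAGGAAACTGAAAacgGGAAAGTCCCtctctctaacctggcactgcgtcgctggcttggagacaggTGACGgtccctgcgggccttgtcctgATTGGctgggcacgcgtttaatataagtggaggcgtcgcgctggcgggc
HLA-B promoter: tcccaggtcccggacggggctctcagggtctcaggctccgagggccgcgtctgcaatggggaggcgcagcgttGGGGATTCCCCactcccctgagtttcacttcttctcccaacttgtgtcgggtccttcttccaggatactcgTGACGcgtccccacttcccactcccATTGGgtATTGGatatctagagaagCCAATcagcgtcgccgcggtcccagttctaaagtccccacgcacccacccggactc
HLA-C promoter: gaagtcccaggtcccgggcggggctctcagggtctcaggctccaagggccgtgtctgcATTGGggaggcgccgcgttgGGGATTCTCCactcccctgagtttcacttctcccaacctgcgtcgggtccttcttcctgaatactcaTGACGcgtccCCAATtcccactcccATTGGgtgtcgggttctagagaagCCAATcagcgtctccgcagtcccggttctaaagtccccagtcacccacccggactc
TAP2 promoter: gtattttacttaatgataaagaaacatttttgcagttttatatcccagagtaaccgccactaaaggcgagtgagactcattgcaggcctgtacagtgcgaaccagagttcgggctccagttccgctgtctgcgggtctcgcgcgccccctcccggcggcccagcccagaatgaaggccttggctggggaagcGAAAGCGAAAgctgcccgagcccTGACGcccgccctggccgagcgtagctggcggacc

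GAAANNGAAA was found in the 250 bases of HLA-F, B2M, TAP1, TAP2 and TAPBP, 5 of the 9 genes, and in 2.92% of the 24131 promoters. NF-kB consensus letters were found at HLA-B, HLA-C, B2M, TAP1 and TAPBP, and in 10.7% of all promoters. TGACG was present at HLA-B, HLA-C, HLA-E, B2M and TAP2, and in 23.9% of all promoters. CCAAT was present at HLA-B, HLA-C, HLA-E, HLA-F, B2M and TAP1, and in 33.8%. The remaining motif, the interferon-gamma activated site TTCNNNGAA, was in none of the 9 windows and in 5.96% of all promoters. NLRC5 held none of the 5 motifs in this window. These are matches of letters, not sites shown to be bound.

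The heavy chain promoters resembled one another, with 89.0% identity between HLA-B and HLA-C, 80.3% between HLA-B and HLA-F, and 63.2% between HLA-B and HLA-E. This bears on where short reads can be placed. Of all 50-base stretches in the span of the strongest regions of both libraries, 2.84% at HLA-B and 4.49% at HLA-C for H3K27ac, and 3.0% and 1.61% for H3K4me3, occurred again on the reference chromosome 6. At HLA-F, TAP1, TAP2 and TAPBP none did, and at HLA-E none did for H3K27ac and 0.501% did for H3K4me3. B2M and NLRC5, which lie on other chromosomes, were not searched. Only exact repeats in the reference were counted, so near matches and the alleles of HSC3 were not covered. How reads with several possible positions were handled is not given in the sources used here, so heavy chain values carry that uncertainty.

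Fold enrichment over local background cannot be compared between lists. The measure used for a gene is therefore the percentile rank of its region with the highest fold enrichment among all regions of that list, where 100 is the top of the list and 0 means that no region was called. A shift of at least 20 points is called a rise or a fall below, which is a rule of size and not a test. The whole number of fragments at each summit was also recovered from the fold enrichment and the p of the peak, and matched the p of 100% of peaks in every list. Recovered depths were 21.5 M reads (siCONT) and 29.4 M (siDLEU1) for H3K27ac, and 28.4 M and 22.3 M for H3K4me3, under an assumed genome of 2.7 Gb. H3K27ac regions covered 17.3 Mb in siCONT and 12.4 Mb in siDLEU1, and H3K4me3 regions 45.2 and 41.4 Mb. Across all genes, the median ratio of fragments per M reads, siDLEU1 to siCONT, was 0.579 for H3K27ac and 1.16 for H3K4me3, and relative ratios below are divided by it. Over all 24131 genes, 13591 had a region in siCONT for H3K27ac and 13668 for H3K4me3. Squamous epithelial markers had a region at 10 of 10 genes for both marks, at median siCONT percentiles of 66.6 for H3K27ac and 95.4 for H3K4me3. Leukocyte markers had one at 0 of 6 genes for H3K27ac and at 1 of 6 (CD68) for H3K4me3, and fibroblast and endothelial markers at 1 (COL1A1) and 2 (COL1A1 and VWF) of 5.

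In control cells the class I genes stood high in both lists. Their median percentile was 95.7 for H3K27ac and 93.4 for H3K4me3, beside 71.0 and 83.2 over all genes with a region. HLA-B, HLA-C, HLA-E, HLA-F, B2M, TAP1 and TAPBP were all above 89 for both marks. TAP2 was lower, at 71.5 and 75.1, and NLRC5 lowest, at 54.3 and 65.1. The order within the group was thus led by TAPBP, at 99.6 and 99.8, and ended with the transactivator.

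After siDLEU1, 5 of the 9 genes had a lower H3K27ac percentile, beside 62.8% of 13591 genes, and 4 had a higher one, beside 37.2%. For H3K4me3, 6 of 9 were lower, beside 48.1% of 13668 genes, and 3 were higher, beside 51.9%. B2M alone fell by 20 points or more in H3K27ac, 1 of 9 beside 19.3% of all genes, and HLA-B alone fell in H3K4me3, 1 of 9 beside 8.93%. TAP2 rose in both marks, 1 of 9 beside 6.97% for H3K27ac and 7.08% for H3K4me3. Only TAP2 and NLRC5 stood low enough in siCONT for a rise of 20 points, so the count of rises had a ceiling. None of the 9 lost its region, which happened at 5.62% and 3.24% of genes. These shares are near those of all genes, so the counts are no result about the class I group as a whole. The median change over the 9 genes was -1.85 points for H3K27ac beside -4.59 over all genes, and -3.06 points for H3K4me3 beside 0.26. What follows describes single genes, of which the called ones are B2M, HLA-B and TAP2.

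**Figure D1:**
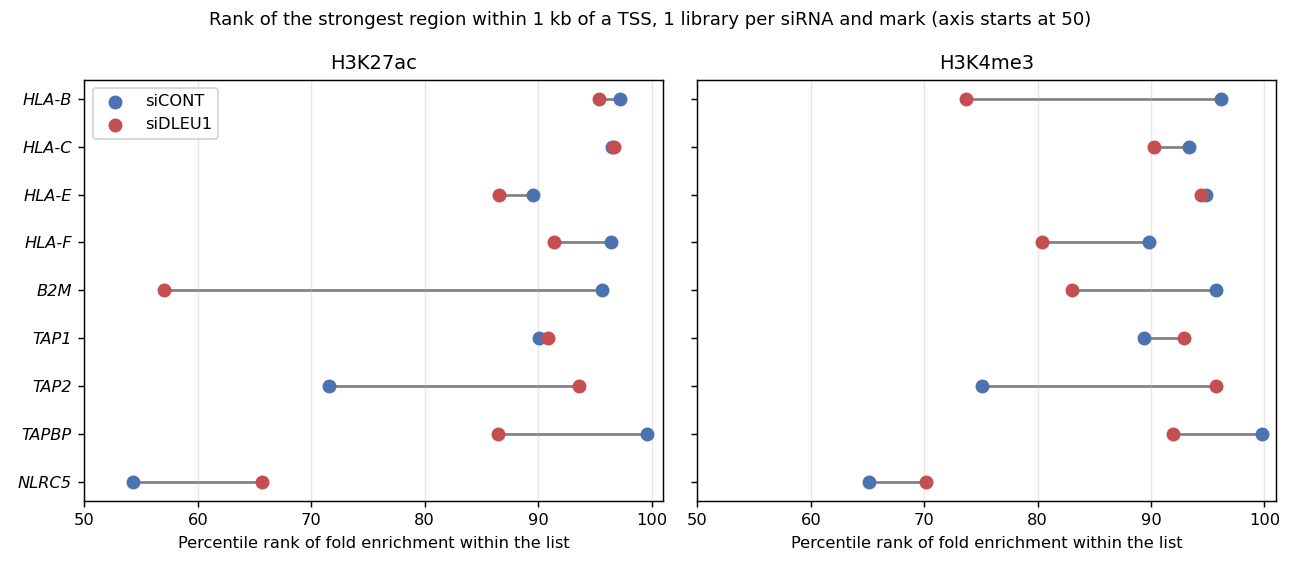
Percentile rank of fold enrichment of the strongest region within 1 kb of a TSS for each of the 9 genes, H3K27ac left and H3K4me3 right, with 1 point for each library (blue siCONT, red siDLEU1) and an axis that starts at 50. B2M moved from 95.7 to 57.0 in H3K27ac, HLA-B from 96.2 to 73.7 in H3K4me3, and TAP2 moved up in both.

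**Figure D2:**
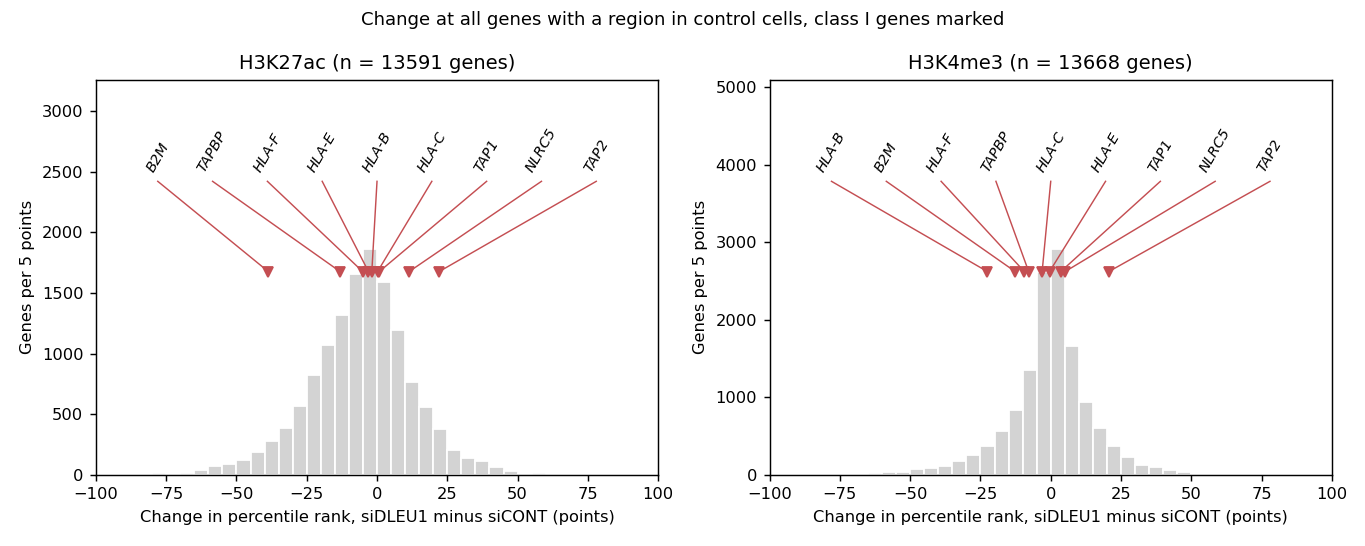
Change in percentile rank, siDLEU1 minus siCONT, at all genes with a region in control cells (grey bars, genes per 5 points) with the 9 class I genes marked by triangles and lines to their names. Most of the 9 lie within the bulk of the genes, from B2M at -38.7 to TAP2 at 22.1 points in H3K27ac and from HLA-B at -22.5 to TAP2 at 20.6 in H3K4me3.

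HLA-B, a classical heavy chain gene on the minus strand (ENSG00000234745, chr6:31321649-31334844), was the only heavy chain that fell by the rule, and it did so in H3K4me3. Its H3K4me3 region ran from 31323884 to 31325601 in siCONT and from 31324233 to 31325472 in siDLEU1, with the summit in intron 1 in both. The percentile was 96.2 in siCONT and 73.7 in siDLEU1, with 164 and 58 fragments at the summit, or 5.77 and 2.60 per M reads. The relative ratio was 0.388 (95% interval 0.282 to 0.526, counting error only), and 0.333% of all genes had a lower one. The local control level, the number of fragments expected at the summit at the depth of the control, was 0.80 and 0.521. It is not on the scale of the fragment numbers given here, which the caller multiplied by 0.252 (siCONT) and 0.301 (siDLEU1) before comparing them with it. The fall stayed past 20 points in every alternative, between -46.9 and -22.5.

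For H3K27ac, HLA-B was at 97.2 in siCONT and 95.4 in siDLEU1. Fragments at the summit were 179 and 119, or 8.33 and 4.05 per M reads, and the relative ratio was 0.839 with an interval that held 1 (0.659 to 1.06). The region was 1918 bp wide in siCONT and 1232 bp in siDLEU1, and at its upstream edge it covered 250 and 216 of the 250 promoter bases. The change was thus -1.85 points in H3K27ac and -22.5 in H3K4me3.

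HLA-C, the other classical heavy chain gene (ENSG00000204525, minus strand, chr6:31236526-31239907), moved little in H3K27ac, from 96.5 in siCONT to 96.7 in siDLEU1, with 162 and 126 fragments. In H3K4me3 it was at 93.4 and 90.3, with 157 and 99 fragments and a relative ratio of 0.691 (0.532 to 0.895). The control region of 1352 bp was matched by 2 regions in siDLEU1, of 732 and 380 bp, which left 172 of the 250 promoter bases covered. The stretch between them held the TGACG and 2 of the 4 CCAAT matches printed above. With the mean over regions in place of the strongest, the H3K4me3 change was -46.0 points, since the smaller region ranked at 4.43.

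HLA-E, a nonclassical heavy chain that presents leader peptides of other class I chains to natural killer cells (ENSG00000204592, plus strand, chr6:30457286-30461971), was at 89.6 in siCONT and 86.5 in siDLEU1 for H3K27ac, with 166 and 124 fragments. For H3K4me3 it was at 94.9 and 94.4, with 169 and 133 fragments. Both relative ratios, 0.942 and 0.863, had intervals that held 1, and with the mean over regions the H3K4me3 change was 15.0 points in place of -0.44. The H3K27ac region was shorter at both ends, 1041 bp from 69 bases upstream of the TSS in siCONT and 652 bp from 29 bases downstream of it in siDLEU1. For H3K4me3 the order was reversed at the upstream side, where siCONT had 2 regions with a gap over the promoter and siDLEU1 a single region of 1167 bp, so that 153 and 250 promoter bases were covered.

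HLA-F, a further nonclassical heavy chain gene (ENSG00000204642, plus strand, chr6:29690552-29706305), had lower values in siDLEU1 in both marks. H3K27ac was at 96.5 in siCONT and 91.4 in siDLEU1, with 192 and 109 fragments and a relative ratio of 0.716 (0.561 to 0.911), lower than at all but 3.25% of genes. H3K4me3 was at 89.8 and 80.4, with 151 and 71 fragments and a relative ratio of 0.515 (0.383 to 0.688), lower than at all but 1.78%. Neither shift reached 20 points under the main setting or any alternative. The local control level was also lower in siDLEU1, 0.935 and 0.528 for H3K27ac and 1.20 and 0.558 for H3K4me3, which raises fold enrichment for a given number of fragments.

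B2M, the shared light chain gene (ENSG00000166710, plus strand, chr15:45003556-45011049), had the largest shift of the 9 genes in either mark. In siCONT the H3K27ac region was a single block from 45003023 to 45005458, 2436 bp wide, with the summit 225 bases into the gene in intron 1, 150 fragments and a percentile of 95.7. In siDLEU1 the same stretch held 2 regions. The upstream region, from 45003124 to 45003586, was 463 bp wide with 62 fragments and a percentile of 57.0, and the downstream region, from 45003721 to 45005151, was 1431 bp wide with 86 fragments and a percentile of 55.2. The percentile at the strongest region thus fell by 38.7 points, and 4.57% of genes had a larger fall.

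The uncalled stretch between the 2 regions began 128 bases before the canonical B2M TSS and ended 5 bases after it. In the sequence printed above, both GAAANNGAAA matches (bases 144 to 129 upstream) lay inside the upstream region, and the NF-kB, TGACG and CCAAT matches (bases 125 to 45 upstream) lay in the uncalled stretch. Of the 250 promoter bases, 250 were covered in siCONT and 122 in siDLEU1. A stretch that is not called may still carry signal below the caller's threshold.

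Per M reads, B2M H3K27ac was 6.98 in siCONT and 2.11 in siDLEU1 at the strongest region by fold enrichment, with a relative ratio of 0.521 (0.381 to 0.705) that was lower than at all but 0.460% of genes. At the highest summit by fragments, which in siDLEU1 is that of the downstream region, the relative ratio was 0.723, so the size of the difference depended on the region taken. The percentile change lay between -62.8 and -23.5 over the alternatives, past 20 points in each. The regions also served PATL2, whose TSS lies 194 bp away on the opposite strand, and the marks of the 2 genes cannot be told apart there.

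B2M H3K4me3 was a single region in both libraries, 2014 bp in siCONT and 2075 bp in siDLEU1, and covered the promoter whole in each. Its percentile was 95.7 and 83.1, with 177 and 100 fragments and a relative ratio of 0.619 (0.480 to 0.796). The local control level was 1.0 in both libraries. This shift of -12.6 points did not reach the rule, and did so only when weaker regions, with a -log10 q under 10, were left out, at -25.9.

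**Figure D3:**
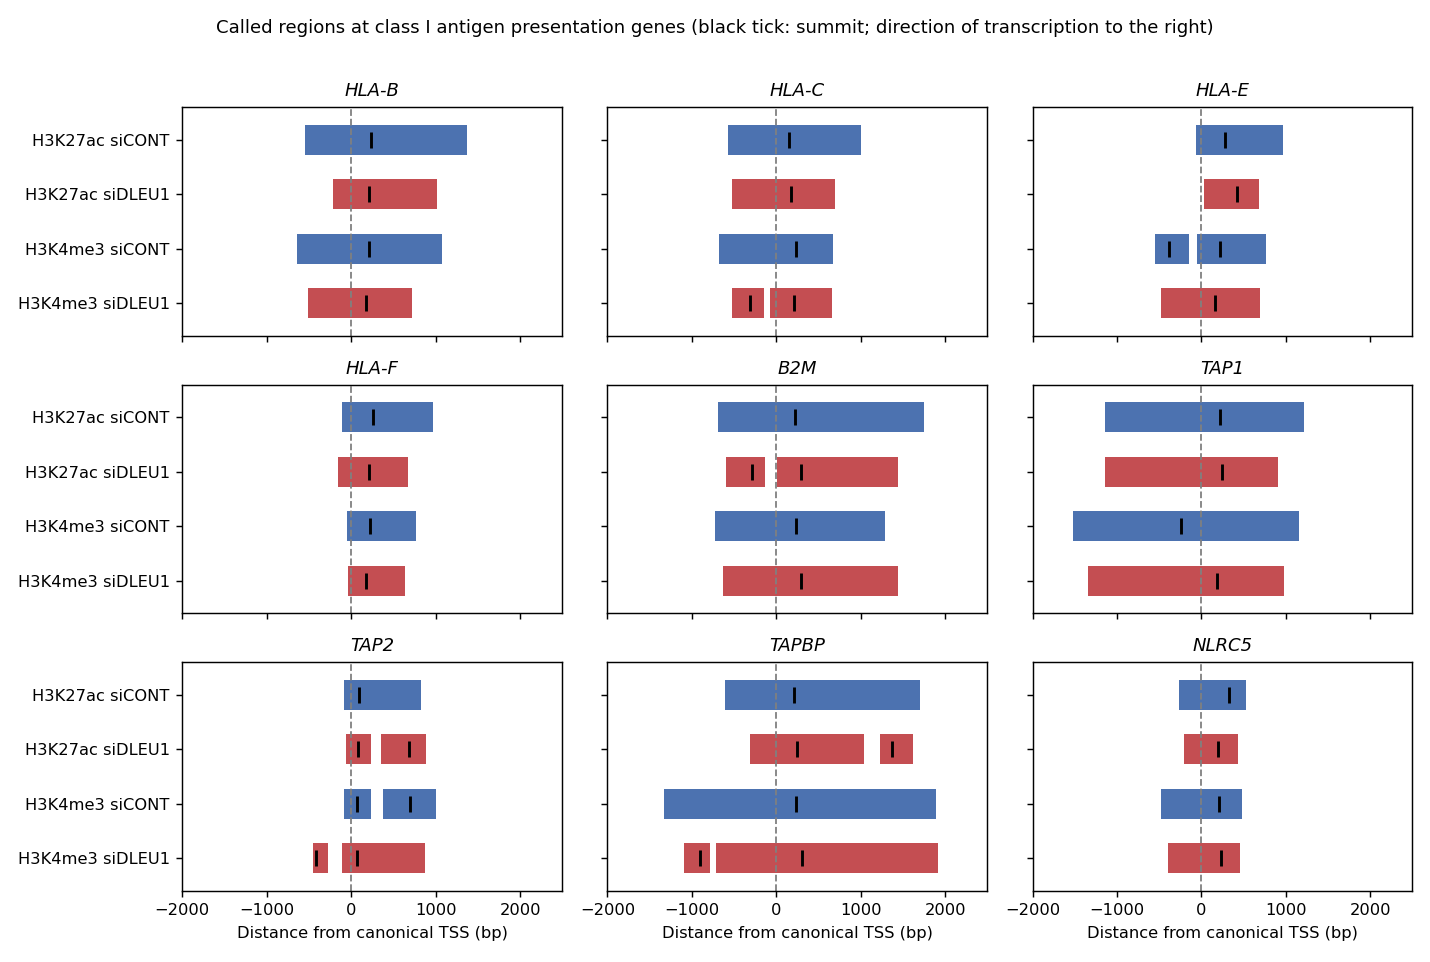
Called regions around the canonical TSS (dashed line at 0) of the 9 genes, with distance in bp along the direction of transcription, blue for siCONT, red for siDLEU1 and a black tick at each summit. At B2M the H3K27ac block of 2436 bp in siCONT is replaced in siDLEU1 by regions of 463 and 1431 bp on either side of the TSS; 3 further NLRC5 regions deep in the gene lie outside the range drawn.

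TAP1, which encodes a subunit of the peptide transporter (ENSG00000168394, minus strand, chr6:32812986-32821593), kept broad regions in all 4 lists. H3K27ac was at 90.1 in siCONT and 90.9 in siDLEU1, with widths of 2361 and 2047 bp and with 168 and 121 fragments. H3K4me3 was at 89.4 and 92.9, with 204 and 124 fragments, or 7.17 and 5.56 per M reads, and a relative ratio of 0.666 (0.529 to 0.837). Rank by fold enrichment and fragments thus pointed in opposite directions for H3K4me3, and the local control level differed between the libraries, at 2.0 in siCONT and 0.744 in siDLEU1. By recovered fragments the change was -6.00 in H3K4me3 and -4.49 in H3K27ac, both opposite in sign to the values by fold enrichment within 1 kb. PSMB9, an immunoproteasome subunit whose TSS lies 488 bp away on the opposite strand, shared the TAP1 region in all 4 lists. With windows of 3 and 5 kb the H3K4me3 change was -5.90 and -3.56. These values rest on another region, the strongest H3K4me3 region of PSMB8 and PSMB9, at 98.8 in siCONT and 95.3 in siDLEU1. At 3 kb it replaced the TAP1 region in siCONT only, and at 5 kb in both libraries, so neither value describes the TAP1 region alone.

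TAP2, the partner subunit (ENSG00000204267, minus strand, chr6:32789610-32806516), rose in both marks and was the only one of the 9 genes to do so. Its H3K27ac percentile was 71.5 in siCONT and 93.6 in siDLEU1, with 99 and 108 fragments, or 4.61 and 3.67 per M reads, and a relative ratio of 1.38 (1.04 to 1.83). Its H3K4me3 percentile was 75.1 and 95.7, with 73 and 120 fragments, or 2.57 and 5.38 per M reads, and a relative ratio of 1.80 (1.34 to 2.44). Of all genes, 95.3% and 98.1% had a lower ratio. The local control level was lower in siDLEU1 than in siCONT, 0.440 against 0.617 for H3K27ac and 0.465 against 0.660 for H3K4me3. Its part in the higher percentiles was not tested.

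The summit of the strongest TAP2 region lay within 91 bases downstream of the TSS in all 4 lists, and the GAAANNGAAA match at bases 58 to 49 upstream was inside a called region in each. Region structure differed between the marks. H3K27ac was 1 region of 907 bp in siCONT and 2 regions of 293 and 530 bp in siDLEU1, while H3K4me3 was 2 regions of 324 and 634 bp in siCONT and a joined region of 986 bp in siDLEU1 with a further 186 bp upstream. The rise did not hold under every choice. With the mean over regions it was 7.26 points for H3K27ac and 7.16 for H3K4me3, and by recovered fragments it was 19.2 for H3K27ac. With a window of 5 kb the H3K4me3 change was -3.13, since the region taken in siCONT was then that of PSMB8, at 98.8. That value sets the PSMB8 region in siCONT against the TAP2 region in siDLEU1.

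TAPBP, the gene of tapasin (ENSG00000231925, minus strand, chr6:33267471-33282061), held the highest percentile of the 9 in control cells. H3K27ac was at 99.6 in siCONT and 86.5 in siDLEU1, with 182 and 132 fragments and a relative ratio of 0.915 (0.726 to 1.15). H3K4me3 was at 99.8 and 92.0, with 219 and 207 fragments and a relative ratio of 1.04. The changes were -13.1 and -7.85 points, while both relative ratios had intervals that held 1, and the local control level was 0.497 in siCONT and 1.0 in siDLEU1 for H3K27ac and 0.532 and 2.0 for H3K4me3. By recovered fragments the changes were -2.68 and 0.11 points. With the mean over regions they were -42.7 and -43.4 points, since siDLEU1 had a small second region in each list, and without regions under a -log10 q of 10 the H3K27ac change was -21.0.

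NLRC5, the class I transactivator (ENSG00000140853, plus strand, chr16:57023397-57117443), had the lowest percentiles of the 9 in control cells for both marks. H3K27ac was at 54.3 in siCONT and 65.7 in siDLEU1, with 92 and 70 fragments and a relative ratio of 0.960 (0.693 to 1.32). H3K4me3 was at 65.1 and 70.2, with 53 and 51 fragments and a relative ratio of 1.05 (0.704 to 1.58), and with the mean over regions the change was -6.43 points. The higher H3K27ac percentile went with a lower control level, 1.0 in siCONT and 0.439 in siDLEU1, and by recovered fragments the change was -9.73 points. Deep in the gene, within 1 kb of internal annotated TSSs, siDLEU1 had 3 H3K4me3 regions that overlapped no region of siCONT. More H3K4me3 regions than in siCONT were called at 13% of all genes. The share of siDLEU1 regions that overlap none of siCONT is not given here, so no gain particular to NLRC5 follows from the 3 regions. The 3 regions lay in intron 19 of the canonical transcript, from 57075615 to 57076138, 57076311 to 57076566 and 57076704 to 57076993. They had 49, 41 and 26 fragments and percentiles of 68.7, 60.8 and 35.1.

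Over the 9 genes, regions were narrower in siDLEU1. For H3K27ac the strongest region was narrower at 9 of 9, beside 90.4% of all genes, and bases covered within 2 kb of the TSS were fewer at 9 of 9, beside 89.6%. More regions than in siCONT were called at 3 of 9 genes (B2M, TAP2 and TAPBP), beside 17.2%. The median width ratio was 0.642 at the class I genes and 0.794 over all genes. For H3K4me3 the strongest region was narrower at 6 of 9, beside 62.8%, with a median width ratio of 0.867 beside 0.940. Covered bases were fewer at 7 of 9, beside 65.7%, and HLA-C, TAPBP and NLRC5, 3 of 9, had more regions than in siCONT, beside 13%. The direction was thus that of the whole libraries.

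H3K27ac fragments per M reads were lower in siDLEU1 at 9 of 9 genes, beside 93.5% of all genes, with a median ratio of 0.530 beside 0.579. H3K4me3 fragments per M reads were lower at 5 of 9 genes (HLA-B, HLA-C, HLA-F, B2M and TAP1), beside 26.9%, with a median ratio of 0.804 beside 1.16. By rank of fragments, 8 of 9 genes were lower in H3K27ac (all but TAP2), beside 70.8%, and 6 of 9 in H3K4me3, beside 46.9%. The median ratio of local control levels, siDLEU1 to siCONT, was 0.713 at these genes beside 0.882 over all genes for H3K27ac and 0.705 beside 0.872 for H3K4me3, and its part in the percentiles was not tested.

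**Figure D4:**
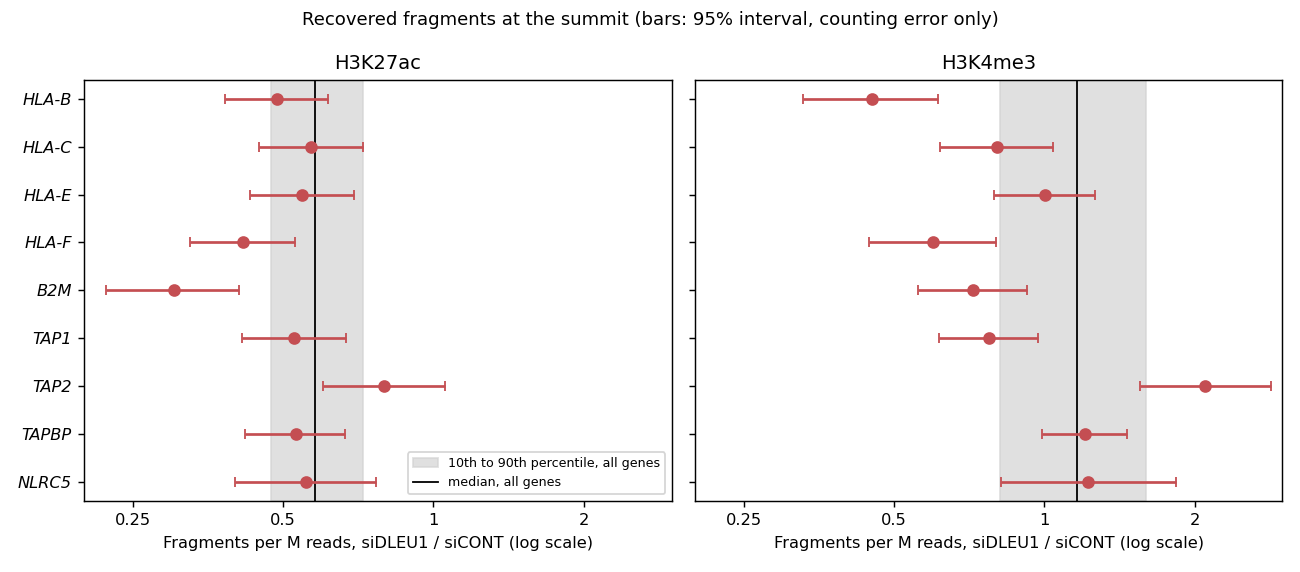
Ratio of recovered fragments per M reads at the summit, siDLEU1 to siCONT, on a log scale for each gene, with 95% intervals that cover counting error only. The black line is the median over all genes (0.579 for H3K27ac, 1.16 for H3K4me3) and the grey band their 10th to 90th percentile. In H3K27ac B2M lies furthest below the band and HLA-F is also below it. In H3K4me3 HLA-B lies furthest below the band, and HLA-F, B2M, TAP1 and HLA-C are also below it. TAP2 lies above the band in both marks. At the highest summit by fragments, not drawn, the H3K27ac ratio was 0.419 at B2M and 0.415 at HLA-F.

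Other genes of the pathway were taken from a list of 23, of which 21 had a region in control cells for each mark and HLA-G and CD1D had none. Over all 24131 genes, 13591 had one for H3K27ac and 13668 for H3K4me3. For H3K27ac, 13 of the 21 were at a lower percentile and 8 at a higher one, beside 62.8% and 37.2% of all genes. By 20 points or more, 6 fell and 2 rose, beside 19.3% and 6.97%, and the median change was -8.47 beside -4.59 over all genes. For H3K4me3, 13 were lower and 8 higher, beside 48.1% and 51.9%, 1 fell and none rose, beside 8.93% and 7.08%, and the median change was -2.48 beside 0.26. PSMB8 and PSMB9 were each counted among the lower genes in H3K4me3, although their strongest region was the same. No gene of the list lost its region in either mark.

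Among genes of peptide processing and loading, 3 of 11 fell in H3K27ac, beside 19.3% of all genes. CALR, the chaperone calreticulin of the loading complex, was at 95 in siCONT and 25.9 in siDLEU1, with 141 and 84 fragments. PSMB10, an immunoproteasome subunit, was at 87.1 and 24.9, with 118 and 83 fragments. ERAP2, which trims peptides in the endoplasmic reticulum, was at 74.6 and 29.3, with 96 and 58 fragments. By rank of fragments these shifts were smaller, -22.5, -12.6 and -25.1 points. CANX, the chaperone calnexin, rose from 55.1 to 94.4, although its fragments, 142 and 110, gave a relative ratio of 0.977, and PSMB8 was the other gene that rose. PSMB9 was at 90.1 in siCONT, in the region it shared with TAP1, and at 95.7 in siDLEU1, in the region of PSMB8, so the pair compares different regions. The region shared with TAP1 was at 90.9 in siDLEU1.

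Of 6 regulators, 2 fell in H3K27ac (RFX5 and RFXANK), beside 19.3% of all genes. RFX5, a subunit of the factor that binds the conserved promoter element of class I and class II genes, was at 76.4 in siCONT and 43.8 in siDLEU1, with 99 and 73 fragments. RFXANK, which belongs to the same factor, was at 86.5 and 58.8, with 122 and 90 fragments. By rank of fragments neither passed 20 points, with -10.8 at RFX5 and -8.39 at RFXANK, and the relative ratios were 0.930 and 0.931. RFXAP, another subunit of it, was the single gene of the list that fell in H3K4me3, from 73.8 to 39.6, with 65 and 30 fragments. MICB, a stress ligand of natural killer cells, was at 69.8 and 37.3 for H3K27ac, the only one of 4 other class I-like chains with a region to fall.

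**Figure D5:**
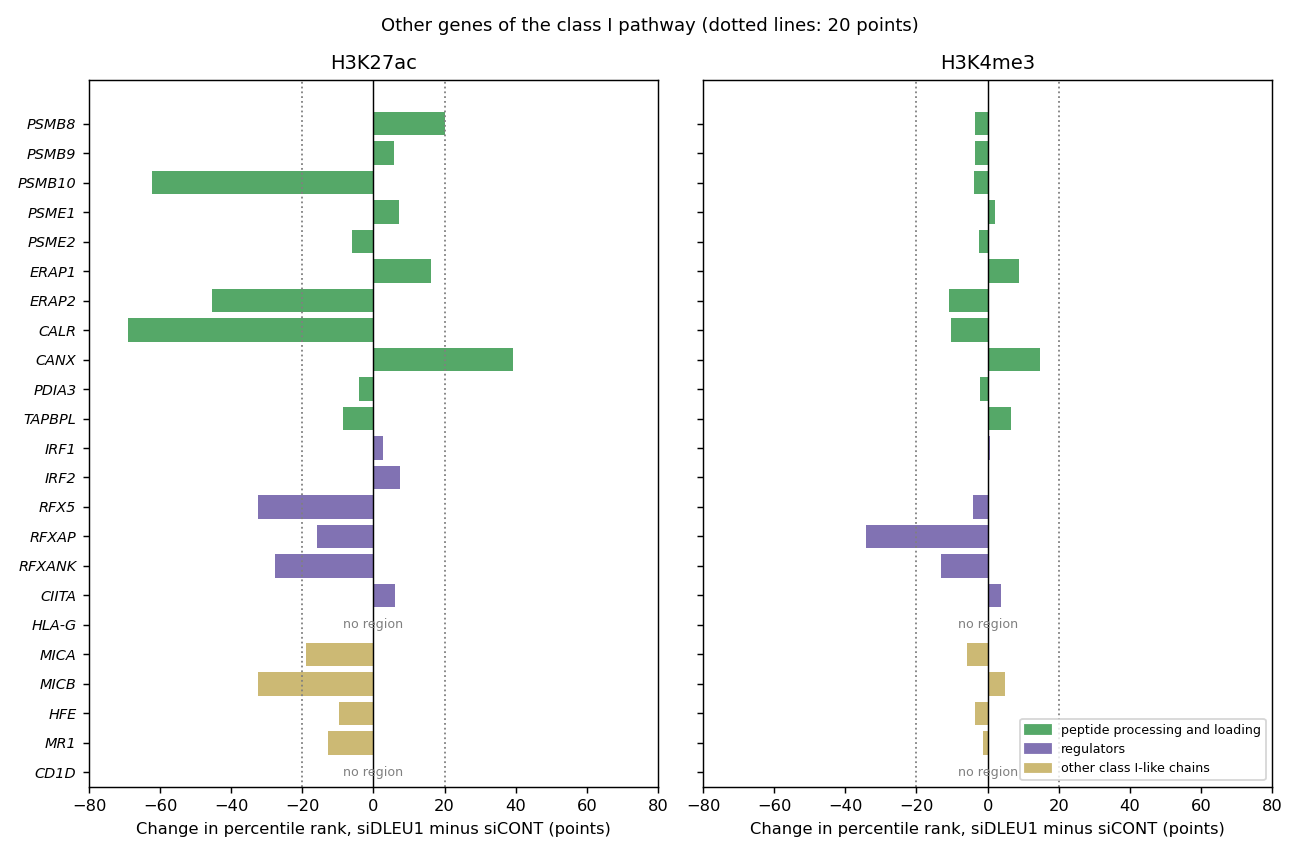
Change in percentile rank, siDLEU1 minus siCONT, at the 23 other genes of the class I pathway, H3K27ac left and H3K4me3 right, with dotted lines at 20 points and colours for the 3 groups of genes. CALR at -69.1 and PSMB10 at -62.2 points show the longest bars in H3K27ac, CANX the longest upward, and RFXAP is the only gene past 20 points in H3K4me3.

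Away from the promoters few regions lay near the 9 genes. Within 25 kb of the canonical TSS and over 1 kb from any TSS, H3K27ac had 2 regions in siCONT and 1 in siDLEU1, and H3K4me3 had 9 and 5 when a region near 2 genes is counted once. The only distal H3K27ac region in both lists was upstream of HLA-E, from 30434282 to 30434639 in siCONT and from 30434237 to 30434580 in siDLEU1, with 28 and 38 fragments. The other, with its summit at -5313 bases from the HLA-F TSS, was called in siCONT only, with 24 fragments at a percentile of 13.0. For B2M, an H3K4me3 region about the same place downstream was 247 bp with 26 fragments in siCONT and 860 bp with 52 fragments in siDLEU1.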

How the data were processed

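ChIP-seq of H3K27ac and H3K4me3 was examined in HSC3 cells transfected with siCONT or siDLEU1, grouped by the labels. The authors sequenced on an Ion Proton, mapped reads to hg19 with bowtie2, called peaks per library with MACS2 and deposited 4 peak lists. The deposited fold enrichment is a ratio over local background, not comparable between lists. The deposited −log10 p and −log10 q are those of MACS2, and the largest q was 0.0486. The deposited score, a display value, was not used. MACS2 settings and version are not given in the sources used here, and 2 input libraries are not analysed here.

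Only peaks on chromosomes 1 to 22 and X entered, and a region was assigned to a gene on an overlap of at least 1 bp with the window. All GENCODE transcripts gave a TSS, for 19136 protein-coding genes and 4995 lncRNAs. Promoters were read from the hg19 genome. Whole fragment numbers were solved from fold enrichment and p, and a second solution existed for at most 0.630% of peaks and for none at the 9 genes. Fragment length was taken as the shortest region, 187 and 176 bp for H3K27ac and 200 and 186 bp for H3K4me3 (siCONT, siDLEU1), so ratios per M reads rest on these lengths and relative ratios do not. Summits held a median of 75 and 68 fragments for H3K27ac and of 47 and 41 for H3K4me3. Intervals are exact 95% Poisson-based intervals and cover counting error only. The solver and the overlap function were tested on simulated data.

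The genes and lists were chosen with earlier results of these data known. Besides the 9 genes, the text names up to 8 genes of the pathway list by size of change among those past 20 points, and genes that share a region with one of the 9. One gene of that list is not reported here and was left out of its counts. PSMB8, HLA-DMA, HLA-DOB, CD74, CD68, COL1A1 and VWF fall outside this rule and were named, after their values were seen, to complete a small count. PSMB8 was also named where its region entered another gene's value. Alternatives were windows of 500 bp, 3 kb and 5 kb, 1 TSS per gene, a −log10 q of at least 10, rank by −log10 p or by fragments, the mean over regions, an overlap of at least 50% of the region, scaling to the median ratio, and the highest summit. Python 3.11.15, numpy 2.4.6, pandas 2.3.3, scipy 1.17.1 and matplotlib 3.10.9 were used.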

Additional observations from a re-analysis of the deposited data

How the results depend on the processing

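No paired analysis was possible because each siRNA was sequenced in 1 library per mark, which also leaves no replicate to omit. The number of class I genes at a lower H3K27ac percentile, 5 under the main setting, was 8 by rank of recovered fragments and between 5 and 7 under the other alternatives, and for H3K4me3, where it was 6, it lay between 6 and 8. The median H3K27ac change, -1.85 points, was -3.71 with a −log10 q of at least 10, -2.99 by rank of −log10 p and -4.49 by rank of recovered fragments. The median H3K4me3 change, -3.06 points, was -5.90 with a window of 3 kb, -5.33 with a −log10 q of at least 10, -2.80 by rank of −log10 p, -6.00 by rank of recovered fragments and -9.39 with the mean over regions. The median ratio of H3K27ac fragments, 0.530 per M reads, was 0.915 relative to the median ratio over all genes, which follows from that scaling. The H3K4me3 change at TAP2 was -3.13 with a window of 5 kb, which took in the PSMB8 region in siCONT. The count of 8 lower genes in H3K4me3 was reached at that window. Of 162 values of single genes under the alternatives, 100 differed from the main value by less than the 95% binomial margins of the 2 percentiles added together. These margins use the number of regions in each list and are not the counting error of fragments. Where an alternative took the same regions and ranks, the value was the same by construction, so the 100 are no measure of stability. The sign changed at 15 of the 162, of which 1, that of TAP2 at 5 kb, belonged to a change of 20 points or more. Apart from the PSMB8 and PSMB9 region at TAP1 and TAP2, the causes were not tested. With 1 library per condition, differences between cultures cannot be seen, and a stretch below the caller's threshold has no value in the lists.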

Other observations

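Class II genes, which present peptides to helper T cells, mostly had no region at their TSSs. Over all 24131 genes, 13591 had one in siCONT for H3K27ac and 13668 for H3K4me3. Of 11 genes listed, 2 had an H3K27ac region in siCONT, HLA-DMA at 89.6 in siCONT and 84.4 in siDLEU1, and CD74, a weak region at 0.29 in siCONT with none in siDLEU1. For H3K4me3 HLA-DMA was at 99.8 and 99.9, CD74 was at 40.1 in siCONT with none in siDLEU1, and HLA-DOB had regions in siDLEU1 only, at 44.

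The genes whose 4 percentiles lay closest to the median profile of the 9 class I genes, by Euclidean distance over the 4 libraries, were ZFYVE9 at 1.85 points, ATP5IF1 at 2.23 and CCDC186 at 2.42. In all, 66 genes lay within 5 points of that profile.

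Of 8 GAAANNGAAA matches upstream of the class I genes, 7 in siCONT and 8 in siDLEU1 lay whole in an H3K27ac region, and 7 in both libraries in an H3K4me3 region. The match outside a region was that of HLA-F, 156 to 147 bases upstream. At B2M, TAP1 and TAPBP all 250 bases were covered in siCONT for both marks, so any match there lay inside a region. The share of such matches inside regions over all promoters is not given here, so no link between motif and mark follows from these counts.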
